A study of Mus musculus with 23 samples.

Results

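RNA contacts of wild-type CTCF were compared between mouse embryonic stem cells (ESCs) and the neural progenitor cells (NPCs) obtained from them after 2 days of differentiation. The measurement was iCLIP2, in which UV light links a protein to the RNA it touches, the protein is immunoprecipitated, and reverse transcription stops beside the linked nucleotide and so marks it. The comparison used 7 of the 23 libraries, 4 of ESC WT and 3 of NPC WT, through the 2 of 6 pooled lists of crosslink sites that belong to them. A gene was compared when both lists together held 20 or more sites on its own strand within its GENCODE body, a rule that 6730 of 55413 annotated genes met. A further 4986 genes had at least 1 site but too few to compare, so that 11716 genes had a site in all.

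All cells came from E14 ESCs in which both endogenous Ctcf alleles carried a mAID-eGFP tag, OsTir1(F74G) stood in the Rosa26 locus and a doxycycline-inducible Flag-Halo CTCF stood in the Tigre locus. ESC and NPC cultures of the same line were grown in parallel and received 1 µM 5-Ph-IAA, which triggers degradation of the tagged endogenous protein, together with 1 µg/mL doxycycline for 24 hours. In the WT groups the induced protein was wild-type CTCF and cells were exposed to 400 mJ/cm2 of UV before nuclear RNA was taken and the Flag tag was precipitated. ESCs were kept with LIF and the inhibitors CHIR99021 and PD0325901, whereas NPCs were differentiated on laminin in N2B27 medium. 2 further pairs of lists were used beside the WT pair. One, from cells whose induced CTCF lacked part of zinc finger 1 (ΔZF1), received the same UV, and the other, noXL, came from the WT line without UV, each with 4 libraries per cell type. All values below describe the induced, tagged protein.

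CTCF is a zinc finger protein that binds a long DNA motif and holds the ends of chromatin loops together with cohesin. Several of its domains also bind RNA. Naive ESCs depend on a circuit of transcription factors such as Nanog, Esrrb, Klf4 and Tfcp2l1 that LIF and its effector Stat3 keep active. When LIF and the inhibitors are withdrawn, cells leave this state, pass through a formative stage marked by Dnmt3b, and then switch on neural genes such as Sox1, Pax6 and Nes. A CLIP site needs both the RNA and its contact with the protein. RNA levels were not analysed here, so a change in the amount of an RNA and a change in its contacts cannot be told apart, nor can fewer cells of a type and less RNA per cell. In the paper, RNA-seq showed higher levels in NPCs for most of the genes it called NPC-specific by CLIP, including Podxl and Grb10.

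Sites at the 2 ends of the comparison are shown first, because they are the RNA positions that the gene counts are made of. Each line gives 29 nt of the mm10 reference in the direction of the transcript, with T for uridine, and the capital letter marks the nucleotide called as crosslinked. For the 5 genes with the highest scaled ratio among 1939 genes with 100 or more sites, and for Podxl and Grb10, which the study followed, the site with the highest score in NPC WT is given.
Sema3e, chr5:14026249-14026277, plus strand, intron: attattctggagaaGttcactcaccgctc
Airn, chr17:12772551-12772579, plus strand, intron: cagagagacacattTgtgtctgtggtgct
Ptpn14, chr1:189728502-189728530, plus strand, 5′ UTR: aggttcttggccctTtctcctccccggtg
Flnc, chr6:29433243-29433271, plus strand, exon of a noncoding transcript of the gene: cccggcccggcccgCacttcccgagcacc
Platr22, chr1:136713708-136713736, plus strand, intron: tgtacatgcgtgcaTgtgtgagtgtatgt
Podxl, chr6:31520519-31520547, minus strand, 3′ UTR: ctttgcctatttttTggacaatacactgg
Grb10, chr11:12037387-12037415, minus strand, 5′ UTR: gggggtggggtgcgGggaggcggcaggaa

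For 4 of the 5 genes with the lowest scaled ratio, the best site in ESC WT is given.
Esrrb, chr12:86470100-86470128, plus strand, intron: acctctcacctcacTtagaactgactccc
Ak4, chr4:101446785-101446813, plus strand, intron: gctcgattcgaaaaTtacactcagattcc
Tet2, chr3:133544280-133544308, minus strand, 5′ UTR: gctttcgtagaggaGcagaaggaagcaag
Jam2, chr16:84774265-84774293, plus strand, 5′ UTR: tcccagacaccacgTcctagggccagaag
The sites in Flnc, Grb10, Esrrb, Ak4 and Jam2 lay within 5 nt of a site called without UV in those cells, and the other 6 did not. The comparison rests on the number of sites along each gene and not on these single positions.

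The ESC WT list held 451137 sites and the NPC WT list 239258. Within genes lay 95.1% and 96.2% of them, 429119 and 230147 sites. The uridine share at the crosslinked nucleotide was 59.9% in ESC WT and 63.9% in NPC WT, against 28.3% and 27.9% in the noXL lists, which held 158968 and 107227 sites. Libraries were merged before the sites were called, so values from these lists have no replicate error and they allow no test between the cell types. Read depth is unknown from the lists. Counts per gene were divided by the number of genic sites in their list, which adds 0.90 to every log2 ratio of NPC over ESC, after 1 site was added to each count. Ranges after a value are 95% intervals derived from Wilson binomial limits and cover counting error only. The Ctcf gene itself, whose protein the design removes and replaces, held 109 ESC WT and 28 NPC WT sites, with 40 and 17 in noXL, which does not measure the protein. Its ratio was -0.15 with exon sites alone and -3.14 with intron sites alone. Any RNA of the induced CTCF that maps to Ctcf exons would be counted on this gene too, which was not tested.

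Of the 6730 genes compared, 776 (11.5%) had a scaled log2 ratio of 1 or more and are called higher in NPC WT. Another 703 (10.4%) had -1 or less and are called lower, and 5251 lay between these limits. The median ratio of all genes was 0.04, with quartiles of -0.41 and 0.47. For 370 of the higher and 294 of the lower genes the counting interval lay wholly past the limit. Sites were absent from the ESC WT list for 89 of the higher genes and from the NPC WT list for 124 of the lower genes. Without scaling, 347 genes were higher and 2823 lower, because the ESC list was longer, and the median of all genes was then -0.86. Any list median given below that lies between 0 and 0.90 turns negative in this way. At the minimum itself, 33 of 124 genes with exactly 20 sites were higher and 29 lower, beside 38 and 27 of 116 genes with 19 sites, which were left out. At the upper limit Aldh7a1, with 25 ESC and 27 NPC sites, lay just inside and Acot7, with 13 and 14, just outside. At the lower limit Il6st, with 96 and 25, lay just inside and Ephb3, with 25 and 6, just outside.

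**Figure D1:**
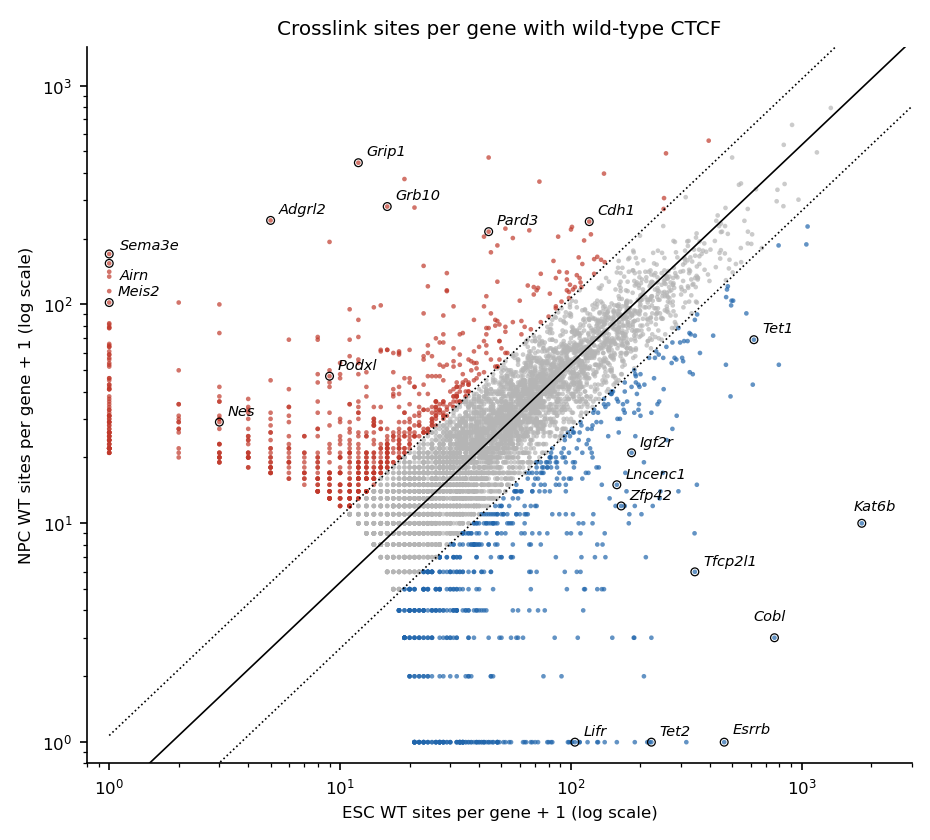
Crosslink sites per gene with wild-type CTCF, 1 point per gene, with ESC WT sites plus 1 on the x axis and NPC WT sites plus 1 on the y axis, both on log scales. Higher and lower genes lie on either side of the 5251 genes between the limits, and genes absent from 1 list, such as Esrrb with 460 ESC sites and Sema3e with 169 NPC sites, lie along the axes.

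Naive pluripotency genes with enough sites to compare were all on the ESC side. Of 19 genes listed, 13 could be compared, and all 13 were lower in NPC WT, against the 10.4% of all genes that were. Their median log2 ratio was -4.15, or -2.88 when the 6 genes without an NPC site were set at the floor of 3 sites. The direction did not depend on scaling, since the unscaled median was -5.04. In 1 further listed gene no site was found in the lists used here.

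Esrrb, an orphan nuclear receptor of the naive circuit (chromosome 12, 86361117 to 86521628, plus strand), held 460 ESC WT sites and 0 NPC WT sites, at least 82.2-fold fewer after scaling. Its noXL lists held 158 and 0 sites and its ΔZF1 lists 263 and 0. In ESC WT, 87.2% of its sites were intronic. Esrrb thus had the same pattern, an ESC list with sites and an empty NPC list, in all 3 pairs. Tfcp2l1, a transcription factor downstream of LIF, held 343 and 5 sites, a log2 ratio of -4.94 (-6.44 to -3.97). Tbx3, a T-box factor that promotes the naive state, held 130 sites in ESCs and 0 in NPCs, at least 23.2-fold fewer. Nr5a2, Klf4 and Klf2, other activators of the circuit, held 71, 66 and 33 ESC sites and no NPC site.

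Nanog, a homeodomain factor, held 85 ESC and still 14 NPC sites, a ratio of -1.62 (-2.51 to -0.90) that was -0.40 with exon sites alone. Fgf4, the growth factor through which ESCs signal to each other, held 57 and 13 sites, a ratio of -1.15 that was -0.89 with a pseudocount of 5, and Klf5 held 47 and 8. Zfp42, the classical ESC marker Rex1, held 164 and 11 sites with UV, a ratio of -2.88 that was -1.16 with exon sites alone, and 18 and 10 without UV, a ratio of -0.22. Among 3262 genes with 50 or more WT and 20 or more noXL sites, Zfp42 was 1 of the 5 whose WT ratio lay furthest below the noXL ratio, at -2.66. Dppa2 and Dppa4, a pair of chromatin regulators of pluripotent cells, held 32 and 35 ESC sites and 0 and 5 NPC sites.

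The genes of LIF and STAT3 signalling, which carry the signal withdrawn in NPC medium, were lower in 6 of 11 compared members, with none higher and a median of -1.0. The receptor subunit Lifr held 103 ESC sites and 0 NPC sites, at least 18.4-fold fewer. Its partner Il6st, which lay just past the limit and was -0.52 with the better-scoring sites, held 96 and 25, the effector Stat3 58 and 2, and the feedback inhibitor Socs3 35 and 0. Receptor, effector and feedback target were therefore all lower, and Stat3 was also lower without UV, with 41 and 1 noXL sites. Tfcp2l1 and Klf4 belong to this list as well.

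Genes of pluripotency in general, which stay on after the naive state ends, showed no such shift. Among 18 compared, 3 were higher and 3 lower, and their median of 0.05 was that of all genes, 0.04. Pou5f1, the gene of Oct4, held 37 and 14 sites, a ratio of -0.44, and Sox2 held 35 and 9, a ratio of -0.95, with each of its sites also inside another gene on the strand. Tdgf1, a Nodal co-receptor, held 100 and 0 sites. Lin28a and Lin28b, which bind the precursors of let-7 miRNAs, were on the NPC side with 17 and 58 sites for Lin28a, a ratio of 2.61 (1.90 to 3.44), and 0 and 58 sites for Lin28b.

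Formative and primed genes mark the stage between the naive state and germ layer cells. Of 16 listed, 4 had no site in either WT list and 7 could be compared. Of these 7, 5 were higher and 1 lower, beside 11.5% and 10.4% of all genes. Dnmt3l, Pim2, Sox4 and Zic2, with 1 ESC site or none, met the minimum through their NPC sites. The median of the 7 was 4.36, or 3.71 with the 3 genes at 0 ESC sites set at the floor, and 3.46 unscaled. Dnmt3b, a de novo DNA methyltransferase, held 13 ESC and 96 NPC sites, a ratio of 3.69 (2.96 to 4.61), and its cofactor Dnmt3l held 0 and 30. The exception, the ETS factor Etv4, which ERK signalling induces, held 44 and 5 sites.

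Neural progenitor markers gave a partial picture. Of 49 listed, 32 had no site in either WT list, including Sox1, Pax6 and Hes5, and 12 could be compared, of which 5 were higher and 3 lower. Meis2, a homeodomain factor of neural precursors, held 0 ESC and 101 NPC sites, at least 62.8-fold more, with 0 and 58 in noXL. Gli3, the repressor arm of Hedgehog signalling, held 1 and 34, Notch1 held 14 and 61, Nes, the intermediate filament nestin, 2 and 28, and the SoxC factor Sox11 0 and 20. These genes had NPC sites with few or none in ESCs.

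In the other direction, the zinc finger gene Plagl1 held 97 ESC sites and none in NPCs, the adhesion gene Ncam1 24 and 2, and the Notch target Hes1 22 and 5, a ratio of -1.04 that was -0.53 with a pseudocount of 5. The median over the 12 genes was 0.89, and -0.01 unscaled. In these lists the name NPC thus rests on the labels and on part of the marker list, and the defining markers named above give no value. Identity was checked separately in the paper, which reported Sox1 protein in the large majority of cells of the untreated rescue lines after 2 days. A gene without sites may still be transcribed, and the lists used here hold no site on some widely expressed genes, so a 0 does not show that a gene's RNA or its contacts were absent. Folds against 0 compare the counts of these lists only.

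Markers of other fates were sparse. No marker of glia, endoderm or two-cell-like cells and no Hox gene had enough sites to compare. Of the neuron markers only Stmn2, which destabilises microtubules, could be compared, with 31 ESC and 3 NPC sites. Of the mesoderm markers only Cdx1, a Wnt target, could be, with 26 and 0. The trophectoderm list had the keratins Krt8 and Krt18 on the NPC side, with 0 and 42 sites and 0 and 25, while its defining factors Cdx2 and Elf5 were listed at 0. Whether cells of these types were present was not tested.

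**Figure D2:**
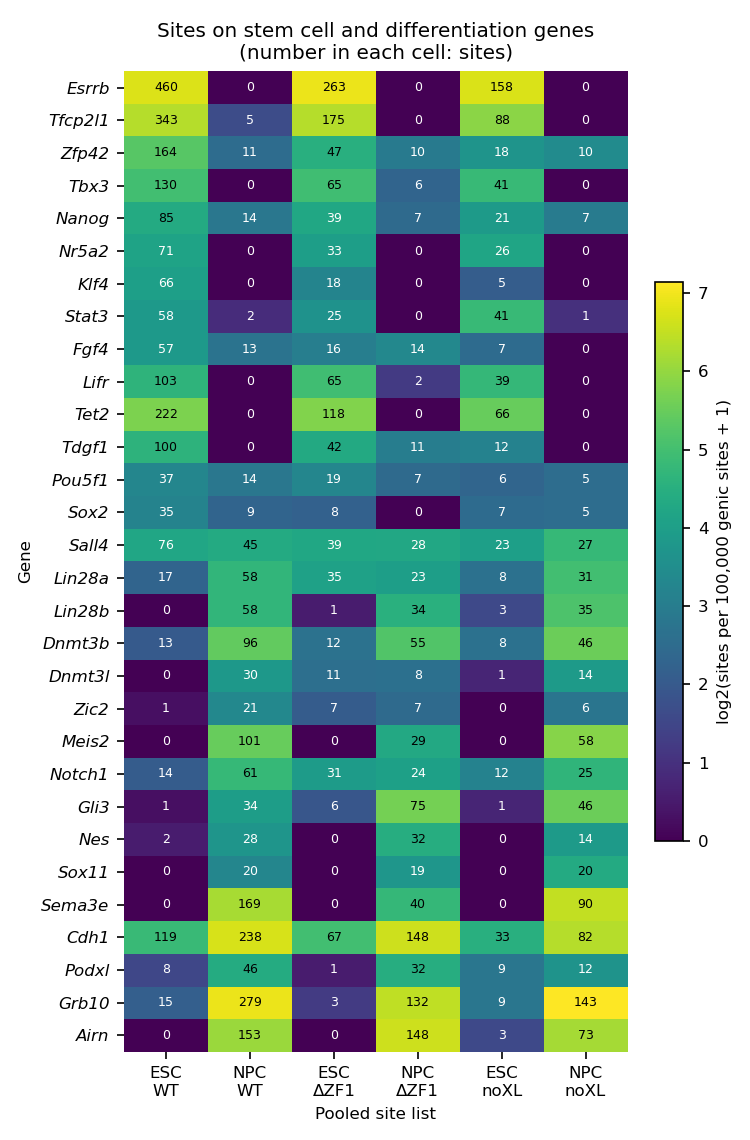
Sites on stem cell and differentiation genes in the 6 pooled lists, 1 row per gene and 1 column per list, with the number of sites in each cell and the colour giving log2 of sites per 100000 genic sites plus 1. Naive genes such as Esrrb (460 and 0 sites) are filled in the ESC columns, and Meis2 (0 and 101) and Dnmt3b (13 and 96) in the NPC columns, with and without UV.

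The DNA methylation genes, whose products write and erase 5-methylcytosine, lay on both sides. Tet1, the main dioxygenase of ESCs, held 619 ESC and 68 NPC sites, a ratio of -2.27 (-2.65 to -1.93) that was -0.58 with exon sites alone. Tet2, a related enzyme, held 222 and 0, at least 39.7-fold fewer, whereas Tet3 held 0 and 21 with 8 and 29 in noXL. With Dnmt3b and Dnmt3l also on the NPC side, 4 of the 13 genes were higher and 2 lower, and their median of 0.04 equalled that of all genes. In Tet1 the intronic share of sites was 73.5% in ESC WT and 4.41% in NPC WT.

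Among signalling pathways that pattern the embryo, Notch genes were higher in 4 of 17 compared and lower in 2, with a median of 0.22 that is -0.68 once the scaling is taken off. The receptors Notch1 and Notch3 and the ligand Jag2, through which neighbouring cells hold each other in the progenitor state, were all on the NPC side. Notch3 held 7 and 68 sites, a ratio of 4.01 (3.08 to 5.27), and Jag2 held 0 and 41. The 2 lower genes were the target Hes1, with 22 and 5 sites, and Pofut1, with 28 and 3, a ratio of -1.96. In 4 of the 10 Notch genes with 20 noXL sites the WT ratio exceeded the noXL ratio by 1 or more, but the medians of these 10 were 0.32 with UV and 0.28 without. Of all 3666 genes that could be compared in this way 359 exceeded it by 1 or more (9.79%), and in 239 (6.52%) the WT ratio lay 1 or more below.

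Wnt genes were higher in 8 of 32 compared and lower in 3, beside 11.5% and 10.4% of all genes, with a median of 0.21 that was -0.69 unscaled. Lrp5, a co-receptor, held 41 and 67 sites, and the receptors Fzd7 and Fzd3 held 23 and 38 and 12 and 17. The receptors Fzd10 and Fzd5 were on the ESC side with 31 and 0 and with 91 and 19. Receptors of 1 family thus lay on both sides. Ctnnb1, the gene of β-catenin, lay between the limits with 173 and 95 sites and a ratio of 0.04.

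Hedgehog genes were few, with 8 compared, 2 higher and 2 lower. Gli2, the main activator of the pathway, held 35 ESC sites and 1 NPC site, and the receptor Ptch1 held 61 and 2, while Gli3 and the co-receptor Cdon, with 11 and 55, lay on the other side. Gli2 and Gli3 thus lay on opposite sides, both with and without UV, as the noXL lists held 40 and 0 sites in Gli2 and 1 and 46 in Gli3. Among 30 genes of FGF and ERK signalling 3 were higher and 4 lower, and among 22 of TGF-beta, BMP and Nodal signalling 4 and 4, with medians of 0.06 and 0.11. The FGF and ERK shares of 10% and 13.3% lay near the 11.5% and 10.4% of all genes. Gab1, an adaptor of receptor tyrosine kinases, held 412 and 71 sites, a ratio of -1.62 that was -0.39 with exon sites alone, and Rps6ka6, an ERK-activated kinase gene on X, 72 and 363. Smad7, the inhibitor of TGF-beta receptors, held 138 and 4. Hippo genes, which restrain growth through the coactivator Yap1, were higher in 5 of 16 and lower in 1. The angiomotin gene Amotl2 held 14 and 98 sites and its relative Amot 0 and 29.

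Axon guidance genes had the largest share of higher members among the lists with 15 or more genes compared, 10 of 19, with 2 lower, beside 11.5% and 10.4% of all genes. Their median was 1.19, and 0.29 unscaled, so that the direction of the median was kept. These genes encode secreted or membrane ligands and their receptors that steer cells and axons. Sema3e, a secreted semaphorin (chromosome 5, 14025276 to 14256689, plus strand), had the highest ratio of the 1939 genes with 100 or more sites, with 0 ESC and 169 NPC sites, at least 105-fold more. Without UV it held 0 and 90 sites and with ΔZF1 0 and 40, so that ESC lists were empty in every pair. Of its NPC WT sites 70.4% were intronic.

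The ephrin Efnb2 held 0 and 65 sites, the netrin receptor Unc5b 0 and 60, and the plexin Plxnb2, a semaphorin receptor, 32 and 72. On the ESC side lay the ephrin receptor Epha4, with 113 and 4, and the Slit receptor Robo1, with 37 and 7. In 14 axon guidance genes with enough noXL sites the median ratio was 0.74 with UV and 0.08 without. Sema3e, Efnb2 and Unc5b had no ESC site in either pair of lists, so their ratios with and without UV cannot be set against each other.

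Adhesion and polarity genes past a limit were mostly higher. Of 25 cadherin, catenin and polarity genes 8 were higher and none lower, beside 11.5% and 10.4% of all genes, with a median of 0.62 that turned to -0.28 unscaled. Cdh1, which encodes E-cadherin, held 119 and 238 sites, a ratio of 1.89 (1.58 to 2.22), and its intronic share was 23.5% in ESCs and 70.6% in NPCs. With exon sites alone the Cdh1 ratio was 0.36 and with intron sites alone 3.75. Most of the difference in Cdh1 was thus a matter of intron sites. Pard3, a scaffold of apical polarity, held 43 and 214 sites, with an intronic share of 41.9% and 83.2%.

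Podxl, a sialomucin of the apical surface (chromosome 6, 31519488 to 31563981, minus strand), held 8 ESC and 46 NPC sites, a ratio of 3.28 (2.36 to 4.48). Its noXL lists held 9 and 12 sites, a ratio of 0.94, and its ΔZF1 lists 1 and 32, a ratio of 4.55. With UV the excess of NPC sites in Podxl was thus found with either protein, and without UV it was smaller by 2.34. Adgrl2, a latrophilin that organises synapses, held 4 and 241 sites, and Magi1, a membrane scaffold, 394 and 559. Without UV Adgrl2 had 0 and 84 sites.

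Basement membrane genes, which encode the sheet that epithelia rest on and its receptors, were higher in 9 of 21 and lower in 3, with a median of 0.75 and -0.15 unscaled. Col18a1, the collagen precursor of endostatin, held 51 and 221 sites, and Lama5, a laminin chain, 47 and 185. Lama1, another laminin chain, lay on the other side with 206 and 1. The laminin chains α5 and α1 were thus opposed. Hspg2, which encodes perlecan, held 252 and 305 sites with UV, a ratio of 1.17 (0.93 to 1.41) that was 0.90 with exon sites alone, and 105 and 48 without, a ratio of -0.55. Of 17 basement membrane genes with enough noXL sites 5 had a WT ratio 1 or more above the noXL ratio and 2 had one 1 or more below, beside 9.79% and 6.52% of all genes. Their medians were 0.75 with UV and -0.02 without.

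**Figure D3:**
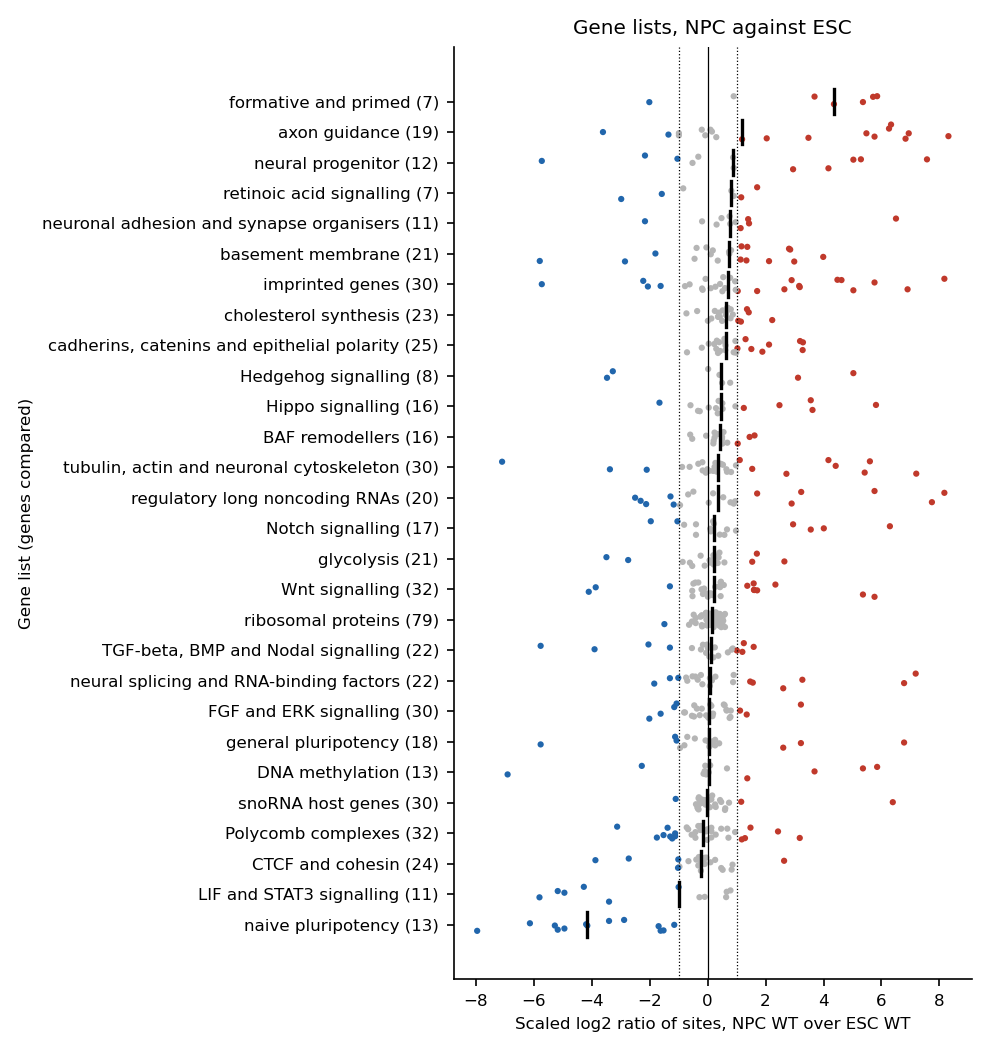
Scaled log2 ratios of sites, NPC WT over ESC WT, for the genes of each list, 1 point per gene and 1 row per list with the number of genes compared. The 13 naive pluripotency genes all lie at or below -1.15, and 10 of 19 axon guidance genes lie at 1 or more.

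Imprinted genes, of which 1 parental copy is expressed, were higher in 12 of 30 compared and lower in 4, beside 11.5% and 10.4% of all genes, with a median of 0.69 and -0.21 unscaled. In the 24 with enough noXL sites the medians were 0.66 with UV and 0.19 without. Grb10, an adaptor that restrains insulin signalling and growth (chromosome 11, 11930508 to 12038683, minus strand), held 15 ESC and 279 NPC sites, a ratio of 5.03 (4.37 to 5.86) that was 2.38 with exon sites alone and 9.06 with intron sites alone. The noXL lists held 9 and 143 sites and the ΔZF1 lists 3 and 132, with ratios of 4.41 and 5.56. The NPC excess in Grb10 was therefore present in all 3 pairs of lists, and the WT ratio exceeded the noXL ratio by 0.62. In NPC WT 82.4% of its sites were intronic.

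The pair Airn and Igf2r lay in opposite directions. Airn, a long noncoding RNA (chromosome 17, 12741311 to 12860136, plus strand) transcribed antisense to Igf2r and needed to silence it in cis, held 0 ESC and 153 NPC sites, at least 95.1-fold more, of which 98.0% were intronic. Without UV it held 3 and 73 sites, so that ESC sites were few or absent in both pairs. Igf2r, the scavenger receptor of insulin-like growth factor 2 (chromosome 17, 12682406 to 12769664, minus strand), held 182 and 20 sites, a ratio of -2.22 (-2.95 to -1.63). The lists carry strand, and 0.654% of Airn sites also lay in another gene of the same strand.

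Ppp1r9a, a neuronal actin scaffold, held 20 and 276 sites, and Sfmbt2, a Polycomb gene imprinted in mouse, 41 and 203. Igf2, the growth factor itself, held 0 and 63 and the noncoding H19 beside it 0 and 28, both named after their values were seen. Plagl1, given above, is imprinted as well and lay on the ESC side.

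Polycomb genes, whose products keep developmental genes silent, were lower in 8 of 32 and higher in 5, with a median of -0.15. The lower ones included Mtf2 and Jarid2, accessory subunits of PRC2, with 503 and 103 and 473 and 116 sites, and Rybp, a subunit of PRC1, with 469 and 107. With exon sites alone none of these 3 was past the limit, the ratios of -1.38, -1.12 and -1.22 becoming 0.20, -0.63 and -0.72. CTCF and cohesin genes lay near the rest, with 1 higher and 4 lower of 24 and a median of -0.22. The higher one was the cohesin subunit Stag2, with 17 and 59 sites. Its germline paralogue Stag3 held 135 and 4, the cohesin acetyltransferase Esco2 85 and 6, and Wapl, which releases cohesin from DNA, 291 and 77. Wapl and Ctcf, the other lower genes, lay just past the limit at -1.01 and -1.02, and with exon sites alone they stood at -0.02 and -0.15.

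Ribosomal protein and snoRNA host genes lay close to all genes. Of 79 ribosomal protein genes 1 was lower and none higher, with a median of 0.15, and of 30 snoRNA host genes 2 were higher and 1 lower, with a median of -0.02. Unscaled, the ribosomal median was -0.75, near that of all genes. Cholesterol synthesis genes were higher in 5 of 23 and lower in none, among them Lss, the lanosterol synthase, with 22 and 57 sites and Hmgcs1, which makes HMG-CoA, with 60 and 83. The Hmgcs1 ratio of 1.36 was 0.24 with exon sites alone. Their median of 0.63 was -0.27 unscaled. Glycolysis genes were higher in 3 of 21 and lower in 2. The glucose transporter Slc2a1 held 68 and 119 sites, a ratio of 1.70 that was -0.79 with exon sites alone, and Pfkp, a phosphofructokinase, 173 and 13.

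Genes of RNA processing in neural cells and of the cytoskeleton were found on both sides. Among 22 neural splicing and RNA-binding factors 6 were higher and 3 lower, beside 11.5% and 10.4% of all genes. Esrp1, an epithelial splicing regulator, held 0 and 77 sites, and Qk, which binds quaking response elements, 326 and 48, a ratio of -1.84 that was -0.95 with exon sites alone. Of 30 cytoskeleton genes 8 were higher and 3 lower, and the lower share of 10% was near that of all genes. Kif1a, an axonal kinesin, held 0 and 78 and Map1b, a microtubule protein of growing neurites, 5 and 68. Cobl, an actin nucleator (chromosome 11, 12236608 to 12464960, minus strand), held 760 and 2, a ratio of -7.09 (-9.54 to -5.80). Among genes with 100 or more sites Cobl was 1 of the 10 lowest.

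Among the 1939 genes with 100 or more sites, the lowest ratios included several genes that no list held. Kat6b, a histone acetyltransferase (chromosome 14, 21481434 to 21672478, plus strand), held 1817 ESC and 9 NPC sites, a ratio of -6.61 (-7.69 to -5.83), and 93.2% of its ESC sites were intronic. It corresponds to 9.51 sites per kb in ESCs, against 2.87 in Esrrb and 3.33 in Cobl. Kat6b therefore had more sites per length than either. Ak4, a mitochondrial adenylate kinase, held 315 and 0, Jam2, a junctional adhesion molecule, 218 and 0, Fbxo15, a ubiquitin ligase subunit long used as an ESC marker, 213 and 0, and Tdh, threonine dehydrogenase, on which mouse ESCs depend, 139 and 0. At the other end, Ptpn14, a phosphatase that restrains Yap1, held 0 and 140, Flnc, the actin crosslinker filamin C, 0 and 133, and Grip1, a scaffold of glutamate receptors, 11 and 443. The 10 lowest genes also included Aff1, of the super elongation complex, with 188 and 0 sites, and Inpp5d, the inositol phosphatase SHIP1, with 157 and 0. The 10 highest also included Xkr6, with 1 and 101, and Lpp, of focal adhesions, with 2 and 99.

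RNA classes differed far less than single genes. Protein-coding genes held 421615 ESC and 225902 NPC sites, 98.3% and 98.2% of genic sites. Long noncoding genes held 5151 and 3081 sites outside coding genes, 1.20% and 1.34%, a log2 ratio of 0.16 (0.09 to 0.22), and in noXL 0.12 (0.02 to 0.22). Pseudogenes fell on the other side with 1600 and 704 sites, a ratio of -0.29 (-0.41 to -0.16), and -0.84 in noXL. The long noncoding ratio rested on few genes. Without Airn, Platr22, Ftx and Mirg, left out after their values were seen, 5100 and 2579 sites gave -0.08 (-0.15 to -0.02), and with lists cut to equal length the ratio was 0.04.

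Among 144 long noncoding genes that could be compared, 17 were higher (11.8%) and 30 lower (20.8%), with a median of -0.07, beside 11.6%, 10.1% and 0.05 among 6536 protein-coding genes. Airn and Platr22 had the highest ratios among 83 noncoding genes with 50 or more sites. Platr22, a pluripotency-associated transcript by its name, held 0 ESC and 114 NPC sites, at least 70.9-fold more. Ftx, a noncoding neighbour of Xist, held 23 and 120 sites, a ratio of 3.23 (2.64 to 3.92), and Mirg, the miRNA host of the Dlk1 and Meg3 cluster, 28 and 115. On the ESC side, Lncenc1, a long noncoding RNA abundant in naive cells, held 157 and 14, a ratio of -2.50 that was -0.45 with exon sites alone, and Tsix, the antisense partner of Xist, 329 and 72, where 90.3% of the sites also lay in another gene of the strand. The Tsix ratio of -1.28 was -0.56 with exon sites alone. The lowest noncoding ratios also included Gm53, with 69 and 0 sites, Gm11944, with 71 and 3, Platr16, with 55 and 3, and Gm26624, with 65 and 5. The highest also included Gm28039, with 125 and 160, nearly all of whose sites lay in another gene too. Its ratio of 1.25 was 0.63 with exon sites alone. Of 20 regulatory noncoding RNAs listed and compared, 6 were higher and 5 lower.

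Small RNAs gave short lists. snoRNAs, which guide the modification of ribosomal RNA, held 506 ESC and 379 NPC sites, a ratio of 0.48 (0.29 to 0.67), and miRNA genes 255 and 200, a ratio of 0.55 (0.28 to 0.82). Without UV snoRNAs held 144 and 138 sites and miRNA genes 99 and 86, with ratios of 0.50 (0.17 to 0.84) and 0.36 (-0.05 to 0.78), whose intervals overlap those with UV. snRNAs of the spliceosome held 522 and 314 sites, a ratio of 0.17 (-0.04 to 0.37) whose interval spans 0. Most snoRNA and miRNA genes lie inside other genes, and their sites are counted for both. Rn7sk, which holds the elongation factor P-TEFb inactive, went the other way with 41 and 3 sites, a ratio of -2.49 (-4.48 to -1.27), with 31 and 0 in ΔZF1 and 0 and 0 in noXL. It was named after its values were seen. Terc, the RNA template of telomerase, held 11 and 10.

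Where sites lay in transcripts also changed. Introns took 37.7% of the genic ESC sites and 30.4% of the genic NPC sites, a log2 ratio of -0.31 (-0.32 to -0.30), and coding exons 36.3% and 43.3%, a ratio of 0.25 (0.24 to 0.26). Exons of noncoding transcripts of coding genes count as intron here, and without them the shares were 33.4% and 26.9%, with the same ratio. The 5′ UTR took 7.92% and 8.81% and the 3′ UTR 16.4% and 15.9%. The other pairs of lists moved differently. Intron shares were 44.8% and 46.6% in noXL and 36.3% and 43.7% in ΔZF1, so that the intron share was smaller in the NPC list in the WT pair only. The WT pair also differed most in length, with 1.86 times as many genic sites in ESCs, against 1.48 in noXL and 1.42 in ΔZF1. With the WT lists cut to equal length by score, the log2 ratio of the intron share was -0.13. The ΔZF1 5′ UTR share was 8.76% in ESCs and 5.37% in NPCs.

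**Figure D4:**
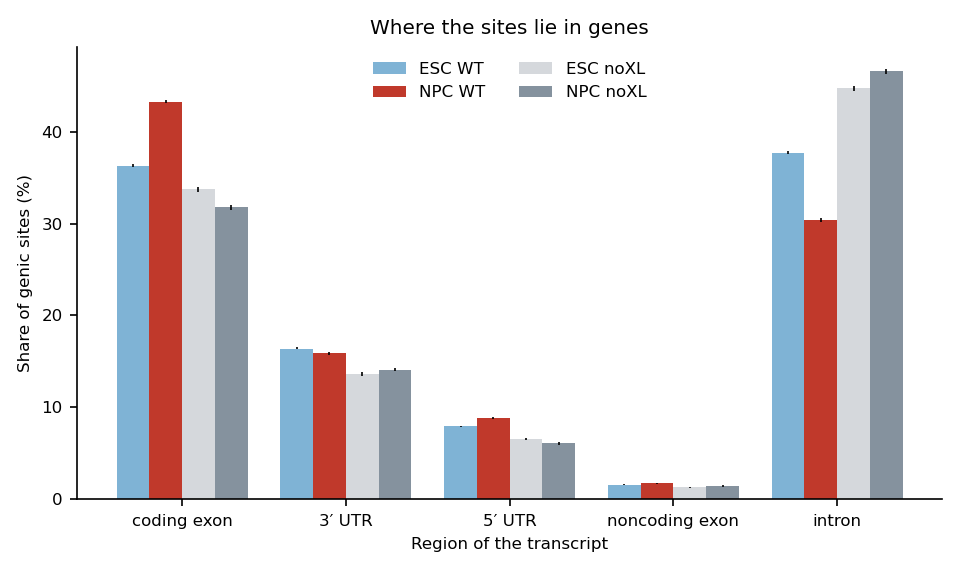
Shares of genic sites, in percent, by region of the transcript in ESC WT, NPC WT, ESC noXL and NPC noXL, with bars for the shares and error bars for 95% Wilson intervals. The intron bar is lower in NPC WT (30.4%) than in ESC WT (37.7%), whereas without UV it stands at 46.6% in NPCs and 44.8% in ESCs.

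The lower intron share was also seen within genes, in the full lists. It was not computed within genes for lists of equal length. Within 1080 genes with 50 or more sites in each WT list, the intron share was smaller in NPC WT in 704 and larger in 371, with a median difference of -4.69 percentage points. In noXL 228 genes met the same minimum, and the share was smaller in 77 and larger in 150, with a median of 4.87 points. In the 225 genes common to both sets the medians were -6.36 points with UV and 4.93 without. In these genes the medians with and without UV thus had opposite signs.

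The groups of higher and lower genes had intron shares of their own. In higher genes introns took 20.0% of the sites in the ESC list and 38% in the NPC list, and in lower genes 53.5% and 30.6%, while genes between the limits went from 36.8% to 30.3%. In each group of genes past a limit the intron share was thus larger in the list that held more sites. The same held without UV, where it was 33.6% and 52.7% in higher and 57.1% and 47.0% in lower genes. The calls rested in part on intron sites. Of the higher genes, 690 could also be compared with exon sites alone and 497 stayed higher, and of the lower genes 622 could be and 479 stayed lower. With intron sites alone 158 of 159 stayed higher and 272 of 290 lower, which is no separate support for the calls. A gene entered that count only with 20 or more intron sites. Genes past a limit had more of their intron sites in the list where they were high, so they mostly entered through that list. Median gene length was 44.8 kb for higher, 32.8 kb for lower and 23.5 kb for the genes between.

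Uridine-rich sequence was the most frequent in every group, but groups differed in composition. Counting T as uridine, the most frequent 5 bases centred on a site were TTTTT in higher, lower and intermediate genes of both WT lists, at 1.96% to 3.27% of sites. In NPC WT the second was TTTGT in all 3 groups, at 1.64% to 1.83%. Without UV, TTTTT made up 0.298% to 0.524% of the sites in these groups. The uridine share at ESC WT sites was 54.2% in higher, 61.4% in intermediate and 61.6% in lower genes, and the GC share of the 10 bases on either side 49.3%, 45.4% and 43.9%. The uridine share at NPC WT sites was 62.8% in higher, 66% in intermediate and 63.6% in lower genes. Higher genes were 7.91% to 15.1% of the genes compared on each chromosome, and lower genes 7.23% to 13.5%.

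The lists without UV, which record RNA that was recovered with no crosslink, moved in much the same way. In the noXL pair 3666 genes could be compared, 390 were higher (10.6%) and 446 lower (12.2%). Of 374 genes higher in WT that also had enough noXL sites, 346 had a positive noXL ratio and 236 were higher there too, 63.1% of these WT genes and 60.5% of the noXL higher genes. None was lower in noXL. Of 372 genes lower in WT, 351 had a negative noXL ratio, 231 were lower there (62.1% and 51.8%) and 3 were higher. The median ratios were 1.73 with UV and 1.30 without for higher genes, and -1.66 and -1.33 for lower genes. Too few noXL sites for this comparison were found in 402 higher and 331 lower genes. The WT and noXL lists share no library, but both come from the same line and cell types.

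**Figure D5:**
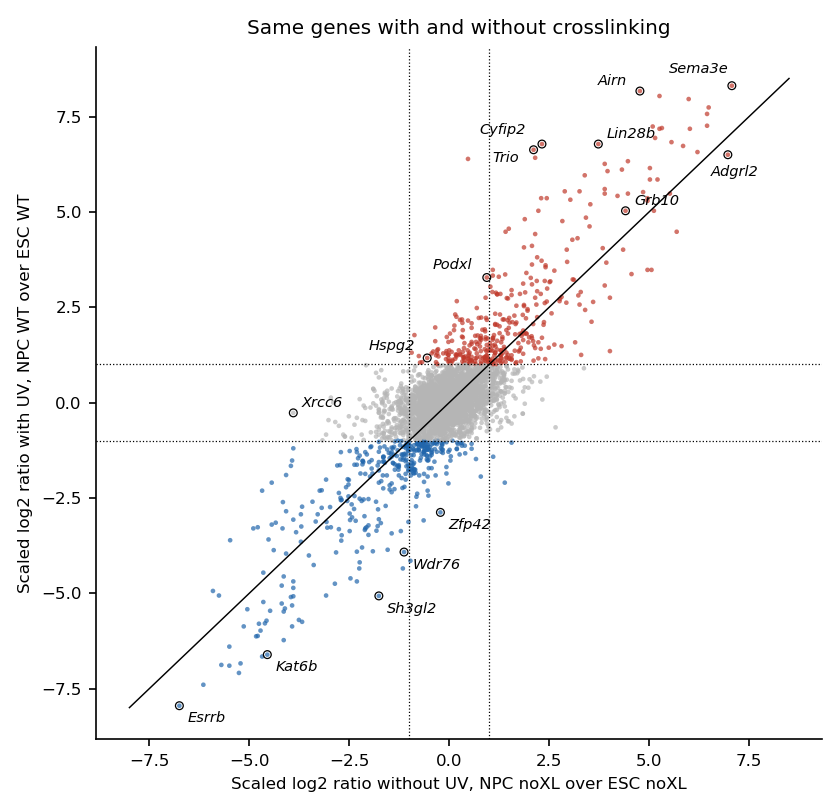
Scaled log2 ratios of NPC over ESC sites for 3666 genes, without UV on the x axis and with UV on the y axis, 1 point per gene. Esrrb and Grb10 lie far from 0 on both axes, and Zfp42 (-0.22 without UV, -2.88 with UV) and Podxl (0.94 and 3.28) lie well off the diagonal.

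The genes whose WT ratio stood furthest from their noXL ratio were sought among the 3262 with 50 or more WT and 20 or more noXL sites, and those given here with a list at 0 have a difference that leans on the pseudocount. Above it by most were Trio, a guanine nucleotide exchange factor, with 0 and 52 sites with UV and 11 and 34 without, and Cyfip2, of the WAVE actin complex, with 0 and 58 and with 7 and 26. Xrcc6, the DNA repair protein Ku70, held 44 and 19 with UV and 21 and 0 without. Airn and Lin28b complete these 5. Trio and Cyfip2 thus lacked sites in the ESC WT list but not in the ESC list made without UV. Furthest below among these 3262 was Sh3gl2, an endophilin of synaptic vesicles, with 187 and 2 sites with UV and 49 and 9 without, a difference of -3.31. Rab11fip4, with 75 and 1 and with 32 and 9, Wdr76, with 112 and 3 and with 41 and 12, Ercc6l2, with 49 and 6 and with 11 and 13, and Zfp42 complete that side. Eif4a2, a translation factor and snoRNA host with fewer WT sites than that minimum, likewise had 0 ESC WT and 44 NPC WT sites but 15 and 14 noXL sites.

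With ΔZF1, 4956 genes could be compared, of which 499 were higher in NPCs (10.1%) and 683 lower (13.8%). Of 496 WT higher genes compared there, 284 were higher with ΔZF1 too (57.3%, and 56.9% of the ΔZF1 higher genes) and 14 were lower. Of 474 WT lower genes, 297 were lower (62.7% and 43.5%) and 3 higher. Sema3e, Meis2, Grb10 and Airn were higher and Esrrb, Tfcp2l1, Tet1 and Kat6b lower in both. Not all the genes named above passed the same limit in both. Lin28a held 35 ESC and 23 NPC sites with ΔZF1, a ratio of -0.08, and Lama5 held 126 and 112, a ratio of 0.34.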

How the data were processed

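Per the methods, the authors mapped trimmed reads to mm10 (STAR), collapsed PCR copies using the molecular identifiers (UMI-tools), pooled each group and called single crosslinked nucleotides with PureCLIP; tool versions are not given in the sources used here. The score column that the authors deposited comes from PureCLIP and is not scaled to depth, so sites were counted and the score was used only to choose sites and in alternatives. Merging leaves no replicate, and a longer list can come from deeper reads.

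Groups came from the sample labels. Sites were assigned on their strand to every GENCODE M21 gene body holding them. Log2 ratios used a pseudocount of 1, the genic sites of each list, a minimum of 20 sites and limits of 1 and -1. A count of 3 was the floor for folds against 0. Regions followed the order coding exon, 3′ UTR, 5′ UTR, noncoding exon, intron.

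Named genes were the cell type markers, up to 6 members past a limit per list with most sites first, Podxl and Grb10, the 10 highest and 10 lowest ratios among genes with 100 sites, the 5 highest and 5 lowest of noncoding genes with 50 sites and of differences from noXL, and those said to be named later. Robo1, Ctnnb1 and Terc were added outside these rules and are not among the named genes that the alternatives cover. Not every list member that met the rules is described, and one gene is not reported here. Members and lists were chosen with earlier results of these data known. Alternatives changed the pseudocount, minimum, scaling, score, base, noXL overlap, gene overlap, region and merging. The counting was tested on simulated data. The software was matplotlib 3.10.9, pysam 0.24.0, scipy 1.17.1, pandas 2.3.3, numpy 2.4.6 and Python 3.11.15.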

Additional observations from a re-analysis of the deposited data

Results flagged for a closer look

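In the genes below, the change from ESCs to NPCs ran opposite ways in the WT lists and in another pair of lists; each group is 1 pooled list, and the difference was not tested. Against ΔZF1, with 50 or more sites in each pair, Prr12 held 24 ESC and 33 NPC sites with WT, a scaled log2 ratio of 1.34, and 52 and 12 with ΔZF1, a ratio of -1.52. Smyd3, which encodes a methyltransferase, held 66 and 7 with WT, a ratio of -2.17, and 23 and 58 with ΔZF1, a ratio of 1.80. Against noXL, with 20 or more sites in each pair, Nemp1 held 39 and 4 sites with UV and 8 and 15 without, with ratios of -2.10 and 1.39. Ufd1 held 39 and 7 with UV and 10 and 15 without, with ratios of -1.42 and 1.10. Gm42664 held 26 and 6 with UV and 7 and 15 without, with ratios of -1.05 and 1.56, and 100% of its sites also lay in another gene of the strand.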

How the results depend on the processing

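No paired analysis was possible because each list pools all libraries of its group, which also means that none of them could be omitted in turn. The number of higher genes, 776 in the report, was 1233 with a minimum of 10 sites, 283 with 50, 347 unscaled, 387 with sites of at least the median score, 517 at uridines, 509 with exon sites and 371 with intron sites. The number of lower genes, 703 in the report, was 466 with a pseudocount of 5, 359 with a minimum of 50 and 2823 unscaled. Genes whose WT ratio exceeded the noXL ratio, 359 in the report, numbered 209 with a pseudocount of 5, 68 with 50 sites in each pair, 69 at uridines, 187 with exon and 202 with intron sites. Those below it, 239 in the report, numbered 64 with 50 sites in each pair and 101 at uridines. Stricter minimums and subsets of sites leave fewer genes to compare, so shares can move the other way, as with intron sites, where 16.78% of 2211 genes were higher, and at uridines, where 10.85% of 931 genes lay below noXL. The log2 ratio of the long noncoding share, 0.16, was 0.04 with lists of equal length and turned to -0.08 without Airn, Platr22, Ftx and Mirg, an alternative chosen after seeing the data. That of the intron share, -0.31, was -0.44 with sites of at least the median score, -0.13 with lists of equal length, -0.36 at uridines, -0.33 without sites near noXL sites and -0.34 with runs of sites counted once. Among 185 named genes, 3 turned direction, all with exon sites alone, namely Mtf2 to 0.20, Peg10 to -0.50 and Slc2a1 to -0.79, and the cause was not tested. Another 258 of 2323 values moved beyond their counting interval. List length limits the comparison, since a gene with few sites can pass a limit through counting error alone.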
